A study of Homo sapiens with 6 samples.

Results

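The 37 genes described here are interferon-stimulated genes, sensors of double-stranded RNA and the transcription factors between them. They were picked by gene symbol from a list written for this question, whether induction of a short hairpin RNA was accompanied by an innate antiviral response, and all 37 were found among the 23754 features of the deposited table (the RNA sensor RIG-I under its older symbol DDX58). The rule uses symbols only and no measured value. RNA came from IMR-90, a line of human fetal lung fibroblasts. The cells were transduced with a lentiviral Tet-pLKO-puro vector carrying the sh-2 hairpin against ZNF469 and selected with puromycin. Cells of the DOX+ group (labelled Sh-ZNF469, 3 libraries) received 2 µg/mL doxycycline for 4 days, and cells of the DOX– group (labelled Control, 3 libraries) received none. The labels give the genotype of the DOX– group as wild-type, whereas the methods describe the same hairpin line without induction. Every DOX+ library differs from every DOX– library in both doxycycline and the hairpin, so the effects of these cannot be told apart, and no library came from cells given interferon or double-stranded RNA. The series describes the libraries of a group as technical replicates, so the p-values measure only the spread between these libraries.

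Cells detect double-stranded RNA, a product of many viruses, through the cytoplasmic helicases RIG-I and MDA5, which signal through the mitochondrial adaptor MAVS, and through TLR3 in endosomes. The signal leads to secretion of type I interferon, whose receptor activates a complex containing STAT2 and IRF9; this complex binds the interferon-stimulated response element (ISRE) in the promoters of antiviral genes. Long double-stranded RNA also activates the kinase PKR and the 2′-5′-oligoadenylate synthetases directly, and hairpins expressed from vectors have been known to set off the pathway in fibroblasts.

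Promoter sequence was compared first, because the ISRE is what most of these genes are known to share. RefSeq promoters (GRCh38.p14, 250 bases before to 50 after the start of transcription) were matched for 30 of the 37 genes. The ISRE core GAAANNGAAA was searched on both strands, and so also as TTTCNNTTTC. It was present in 20 of these 30 genes (66.7%) and in 1195 of the 27305 gene symbols in the same collection (4.38%). The core of the interferon-gamma activated site, TTCNNNGAA, reads the same on both strands. It was present in 11 of the 30 genes (36.7%) and in 2560 of the 27305 gene symbols (9.38%). Some genes had several promoter windows (ADAR had 3). The windows of a gene were pooled, for the 30 genes and for the whole collection alike, so both shares are over genes. A match is a description of the letters and not evidence of binding. Windows around the ISRE core are shown for 6 genes that differ widely in expression, from the most abundant member (IFITM3) to those with at most 20 counts in each library (MX1 and IFI27). Each is written 5′ to 3′ on the strand of the gene, with the core in capitals. None of these windows overlaps an exon annotated in GENCODE 44, apart from the last 4 bases of the IFIT1 window.
ISG15, chr1:1013364-1013419, plus strand: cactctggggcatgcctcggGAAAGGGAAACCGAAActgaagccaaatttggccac
IFITM3, chr11:320866-320932, minus strand: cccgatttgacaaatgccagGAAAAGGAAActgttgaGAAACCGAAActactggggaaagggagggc
IFIT1, chr10:89392487-89392549, plus strand: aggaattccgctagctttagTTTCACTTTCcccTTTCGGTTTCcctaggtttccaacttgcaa
IFIH1, chr2:162318685-162318725, minus strand: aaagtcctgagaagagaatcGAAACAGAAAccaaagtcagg
MX1, chr21:41431834-41431883, plus strand: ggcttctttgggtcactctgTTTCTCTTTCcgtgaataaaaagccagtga
IFI27, chr14:94110608-94110670, plus strand: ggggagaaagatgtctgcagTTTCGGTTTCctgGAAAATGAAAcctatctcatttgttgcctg
The ISG15 and IFITM3 windows each hold 2 matches, overlapping in ISG15 and separate in IFITM3. The IFIT1 window holds 2 matches in the reverse orientation, and the IFI27 window holds 1 in each orientation. The IFIH1 and MX1 windows hold 1 match each.

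Counts summed to between 34057675 and 36120260 per library, and 13991 features passed edgeR's filter on low counts. A count of 0 allows up to 3 counts, which is 0.0828 to 0.0886 CPM (counts scaled to a common library size) depending on the library, and this covers counting error only. DOX+ replicate 2 stood apart on the first principal component, where it scored 32.8 and the rest −12.6 to 0.524, and results are therefore also given without it. The targeted gene ZNF469 (ENSG00000225614, chromosome 16 from 88382959 to 88440757) measured 119 ± 7.25 CPM (SD, n = 3) without and 80.1 ± 0.488 CPM (SD, n = 3) with induction. Every DOX+ library lay below every DOX– library, and edgeR gave an adjusted p of 3.3e-05 for the log2 fold change of −0.57. All 8 fibroblast markers were expressed, and their summed level was 20930 to 21249 CPM in DOX– and 17543 to 17979 CPM in DOX+ libraries, with COL1A2, DCN and LUM lower by edgeR. Of 11 leukocyte markers, 8 were at 0 in all 6 libraries, and the sum, nearly all CD68, was 60.7 to 66.8 CPM in DOX– and 59.1 to 65.3 CPM in DOX+ libraries. The endothelial markers PECAM1 and CDH5 and the epithelial markers SFTPC and SCGB1A1 were at 0. The sum of the 7 epithelial markers, nearly all KRT18 and KRT8, was 107 to 116 CPM in DOX– and 110 to 132 CPM in DOX+ libraries, and that of the 5 endothelial markers was below 1 CPM in each library. The part of these markers in the results was not tested.

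The interferon and double-stranded RNA genes did not pass the test in either direction. Of the 37 genes, 4 had 0 counts in all 6 libraries, 5 were detected but fell under the filter, and 28 were tested. By edgeR's quasi-likelihood test, adjusted after Benjamini and Hochberg across the 13991 features, 0 of the 28 were called higher and 0 lower in DOX+ cells at an adjusted p under 0.05. Over all features it called 1.12%, made up of 0.400% higher (56 features) and 0.715% lower (100 features), a split that was 88 higher and 77 lower with library size scaling. limma-voom also called 0 of the 28. DESeq2 gave an adjusted p for 13 of the 28 and for 9379 of all features, and called 0 of the 13 higher and 3 lower, which were IFITM1, IFITM2 and IFITM3. Over all features it called 2.77% higher and 2.85% lower. At an unadjusted p under 0.05, 0 of the 28 were higher, where 7.31% of all features were. At the same threshold 5 of the 28 (17.9%) were lower, which were IFITM1, IFITM2, IFITM3, IRF1 and ISG20, against 7.69% of all features. In CPM, the values of the groups did not overlap for 4 of the 28 genes (14.3%), against 20.3% of all features tested.

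Apart from ISG20 (−1.76), IFIH1 (0.44) and XAF1 (0.50), the estimates lay between −0.25 and 0.21. The log2 fold change was above 0 for 9 and below 0 for 19 of the 28 genes, with a median of −0.03, against a median of −0.002 over all features, of which 50.7% were below 0. The 95% interval lay wholly within ±0.5 for 18 genes. For 24 of the 28 its upper bound stayed under 1, the log2 value of a doubling. The 4 genes whose interval reached past a doubling were IFIH1, MX1, XAF1 and BST2, each with at most 80 counts in a library. Leaving out one library at a time moved the estimate by over 1.5 times, or turned its sign, for 23 of the 28 genes, and for 14 of these it turned the sign. The other 5 were IFITM1, IFITM2, IFITM3, IRF1 and ISG20, the same 5 with an unadjusted p under 0.05 by edgeR. The criterion is a ratio, so an estimate near 0 meets it with a small shift. TAP1, at −0.002, ranged only from −0.017 to 0.027. Few such moves therefore go with a small p and are no separate evidence, and the share over all features was not computed. Without DOX+ replicate 2, edgeR again called 0 of the 28 in either direction (smallest adjusted p 0.189), and the median was −0.10. In these bulk libraries, fewer cells with a transcript and less of it per cell cannot be told apart.

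**Figure D1:**
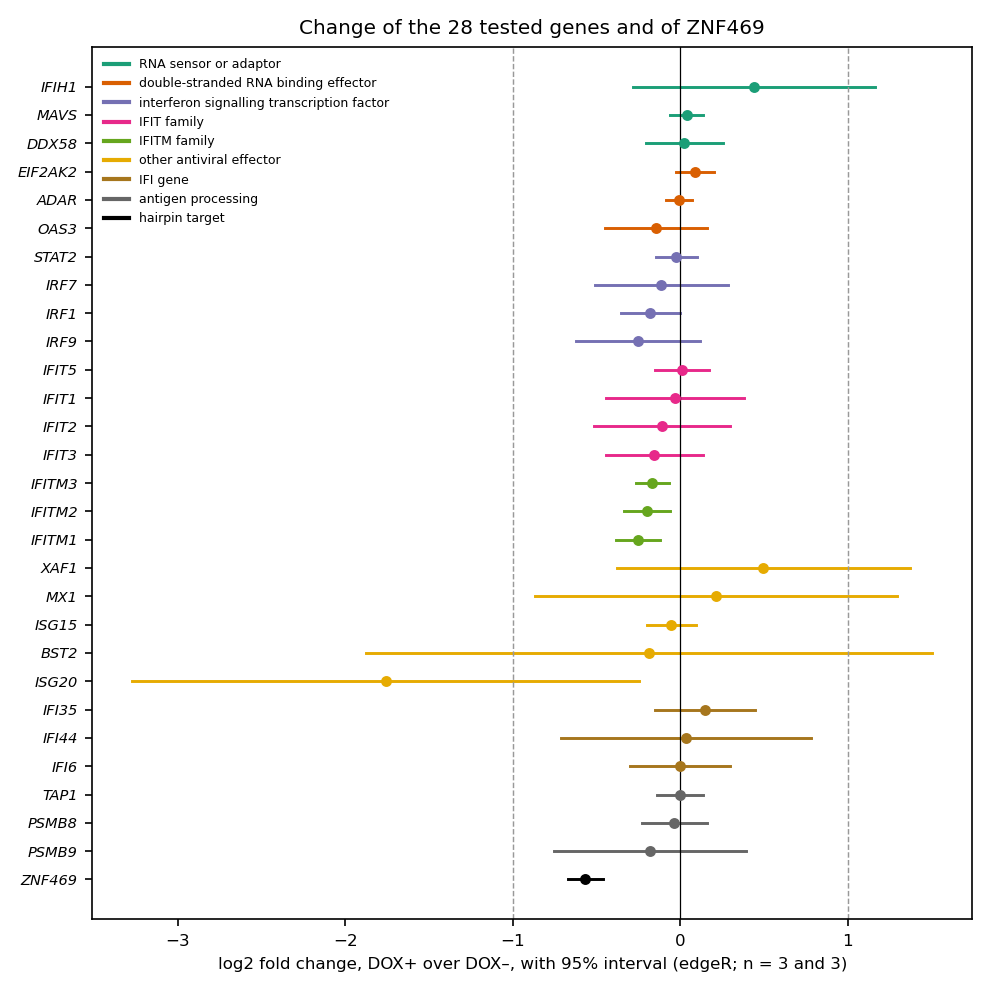
Log2 fold change (DOX+ over DOX–) with the 95% interval for ZNF469 and for each of the 28 tested genes of the interferon and double-stranded RNA response, from edgeR's quasi-likelihood fit to 3 libraries per group. Of the 28 intervals, 18 lie within ±0.5, and the wide ones belong to genes with few counts, such as ISG20, BST2 and MX1.

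The level of the genes in uninduced cells was set out per length, as the FPKM values that the authors deposited. Of the 37 genes, 7 had a DOX– mean of 10 FPKM or more, 14 lay between 1 and 10, 11 lay above 0 but under 1, and 5 were listed at 0 in all DOX– libraries. IFITM3 stood highest, at 281 ± 4.76 FPKM (SD, n = 3) in DOX– and 257 ± 13.6 in DOX+ cells. IFITM2 followed with 121 ± 4.48 and 103 ± 7.38 FPKM. ISG15, at 35.3 ± 2.48 and 35.1 ± 0.596 FPKM, and IFITM1, at 31.4 ± 1.05 and 27.0 ± 1.04 FPKM, came next, and ADAR stood at 28.6 ± 0.368 and 29.1 ± 0.0615 FPKM. The ISG15 and IFITM1 levels lie near each other in DOX– cells, while the steps from IFITM3 to IFITM2 and from IFITM2 to ISG15 are many times the spread between libraries. The uninduced fibroblasts held transcripts of the membrane proteins and of the editing enzyme at high level. They held little or none of the synthetases OAS1 and OAS2, of the related OASL, of MX2 or of RSAD2.

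**Figure D2:**
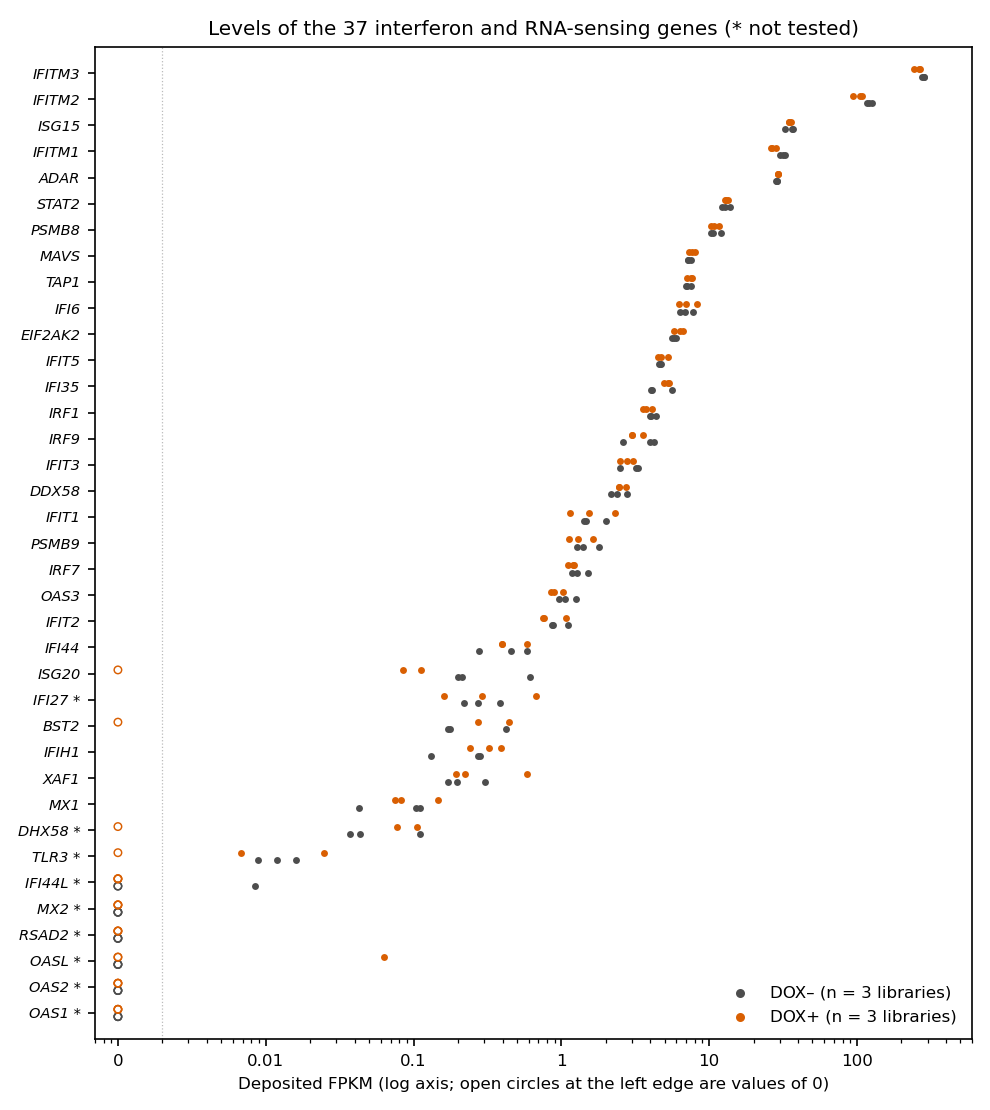
FPKM, as deposited, in each of the 3 DOX– and 3 DOX+ libraries for the genes of the interferon and double-stranded RNA response, on a log axis and ordered by level, with values of 0 as open circles at the left edge. The IFITM genes, ISG15 and ADAR lie at the top. The FPKM values of the groups separate for IFITM1, IFITM2, IFITM3 and ISG20, which lie lower in DOX+, and for ADAR, which lies higher. They overlap for ISG15 and most other genes. In CPM the groups overlap for ADAR (log2 fold change −0.007) and IFITM2. The share of all features that separate in FPKM was not computed, and in CPM it was 20.3% of those tested.

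The cytoplasmic sensors were measured at low to moderate counts. DDX58, which encodes RIG-I, the sensor of 5′-triphosphate double-stranded RNA, had 453, 403 and 369 counts in DOX– replicates 1, 2 and 3 and 415, 454 and 419 in DOX+ replicates 1, 2 and 3. The ranges overlap, and the log2 fold change was 0.02 (95% interval −0.20 to 0.25). IFIH1, which encodes MDA5, the sensor of long double-stranded RNA, had 18, 31 and 36 counts in DOX– and 37, 50 and 32 in DOX+ libraries. DOX– replicate 1 is the lowest, and the remaining values overlap. The log2 fold change of IFIH1, 0.44, is the second highest of the 28, with an interval of −0.28 to 1.17 and an edgeR adjusted p of 0.57, so a doubling of this sensor is within the interval at its depth. Leaving out one library at a time gave 0.21 (without DOX– replicate 1) to 0.65 (without DOX– replicate 3), and 0.24 without DOX+ replicate 2. DHX58, which encodes the regulatory helicase LGP2, had 5, 4 and 12 counts in DOX– and 7, 11 and 0 in DOX+ libraries. TLR3, the endosomal sensor, had 2, 4 and 3 against 2, 0 and 6 counts. Neither was tested, and only a large difference would be detectable at this depth. MAVS, the adaptor of both helicases, was well covered, with 3297, 3244 and 3307 counts in DOX– and 3347, 3406 and 3693 in DOX+ libraries. DOX+ replicate 3 is the highest, but after scaling the groups overlap, and the log2 fold change was 0.04 (95% interval −0.06 to 0.13).

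Enzymes that bind double-stranded RNA themselves were described next. EIF2AK2 encodes PKR, the kinase that halts translation when it binds double-stranded RNA. It measured 65.0, 63.6 and 62.5 CPM in DOX– and 69.6, 71.2 and 62.2 CPM in DOX+ libraries. DOX+ replicates 1 and 2 lie above all DOX– values, and replicate 3 lies below them. Its log2 fold change was 0.09 (95% interval −0.03 to 0.20, edgeR adjusted p = 0.48), and was 0.049 without DOX+ replicate 2, 0.14 without DOX+ replicate 3 and 0.042 with a trend on transcript length removed. ADAR, which deaminates adenosines in double-stranded RNA and has an interferon-inducible form, measured 205, 202 and 211 CPM in DOX– against 208, 202 and 205 CPM in DOX+ libraries. The interval is the narrowest among the 28 genes, −0.08 to 0.07 around a log2 fold change of −0.01. Among the 2′-5′-oligoadenylate synthetases, whose product activates RNase L, only OAS3 was covered. It had 146, 167 and 175 counts in DOX– and 157, 160 and 138 in DOX+ libraries, which overlap, with a log2 fold change of −0.15 (95% interval −0.45 to 0.16). OAS1 and OAS2 were at 0 in all 6 libraries, and the related OASL had 9 counts in DOX+ replicate 1 and 0 in the other 5 libraries.

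**Figure D3:**
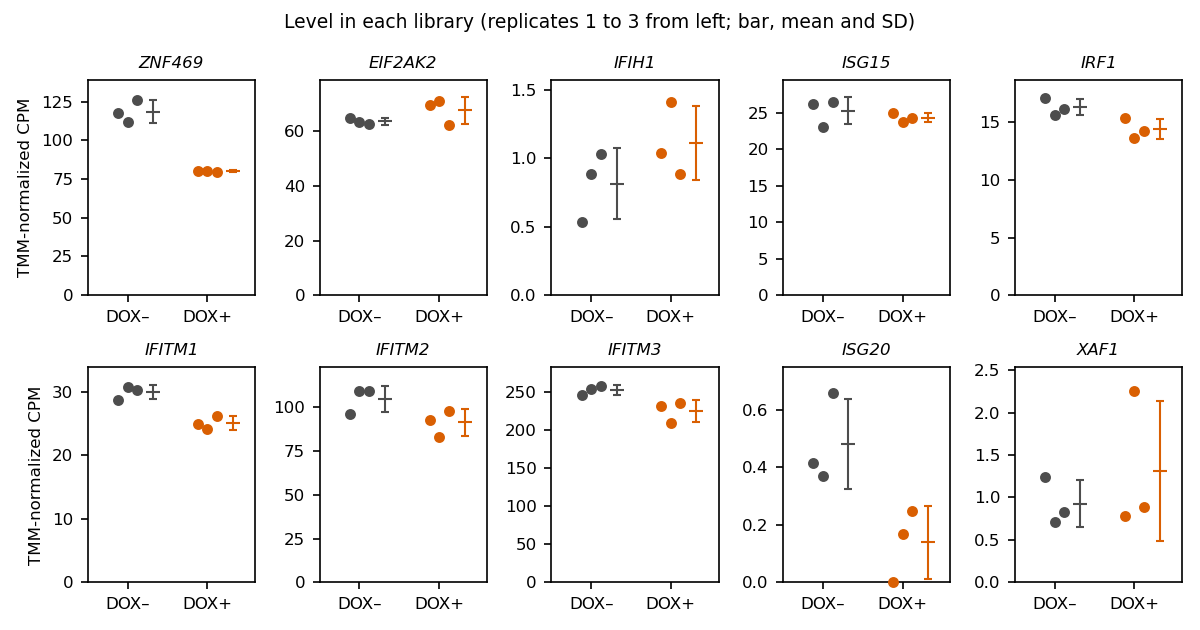
TMM-normalized CPM in each library for ZNF469 and 9 genes of the response, with the group mean and SD (n = 3 per group). The groups separate for ZNF469, IFITM1, IFITM3, IRF1 and ISG20 and overlap for EIF2AK2, IFIH1, ISG15, IFITM2 and XAF1. The 9 genes include all 4 of the 28 tested genes that separate (14.3%, against 20.3% of all features tested).

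The transcription factors that carry the interferon signal did not pass the test. STAT2 measured 48.4, 42.4 and 45.5 CPM in DOX– and 44.8, 43.2 and 46.1 CPM in DOX+ libraries, with a log2 fold change of −0.02 (95% interval −0.14 to 0.10). IRF9, its DNA-binding partner, had 270, 295 and 174 counts in DOX– and 212, 225 and 204 in DOX+ libraries. The DOX– libraries spread more widely than the DOX+ libraries and enclose them, and the log2 fold change was −0.25 (95% interval −0.62 to 0.12). Leaving out a DOX– library moved it to −0.16 (replicate 1), −0.12 (replicate 2) or −0.45 (replicate 3). IRF7, which amplifies transcription of the interferon-alpha genes, had 105, 93 and 78 counts in DOX– and 89, 84 and 91 in DOX+ libraries, with a log2 fold change of −0.11 (95% interval −0.51 to 0.28). IRF1, an early factor of the interferon-gamma response, was the only one of the 4 whose groups did not overlap. It measured 17.1, 15.7 and 16.2 CPM in DOX– and 15.3, 13.6 and 14.3 CPM in DOX+ libraries. Its log2 fold change of −0.18 had an interval of −0.35 to −0.004 and an edgeR adjusted p of 0.32.

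The IFITM family gave the smallest p-values among the 37 genes. These genes encode small transmembrane proteins that block the fusion of enveloped viruses with endosomes, and they lie side by side on chromosome 11, IFITM2 (ENSG00000185201) from 303655 to 309397, IFITM1 (ENSG00000185885) from 310041 to 315272 and IFITM3 (ENSG00000142089) from 319676 to 329475. IFITM1 measured 28.6, 30.7 and 30.3 CPM in DOX– and 24.9, 24.1 and 26.2 CPM in DOX+ libraries. All 3 DOX+ values lie under all DOX– values. The log2 fold change was −0.25 (standard error 0.0607), with an edgeR adjusted p of 0.071 and a DESeq2 adjusted p of 0.022. IFITM3 measured 245, 253 and 258 CPM in DOX– and 231, 209 and 235 CPM in DOX+ libraries. The groups again do not overlap, and DOX+ replicate 2 is the lowest. The log2 fold change was −0.17 (standard error 0.0455), with an edgeR adjusted p of 0.11 and a DESeq2 adjusted p of 0.0078. IFITM2 measured 96.0, 109 and 109 CPM in DOX– and 92.8, 82.8 and 97.9 CPM in DOX+ libraries. DOX+ replicate 3 lies above DOX– replicate 1, so the groups overlap in CPM. In the deposited FPKM values they do not overlap, at 117, 120 and 126 in DOX– and 105, 94.5 and 109 in DOX+ libraries. The log2 fold change was −0.20 (standard error 0.0641), with an edgeR adjusted p of 0.17 and a DESeq2 adjusted p of 0.036.

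Several measurements bear on how the IFITM values are read. The transcripts are alike, with 94.0% identity between IFITM2 and IFITM3 over 598 aligned bases, 80.1% between IFITM1 and IFITM3 and 78.0% between IFITM1 and IFITM2, so reads could be divided between them and the value of each gene is uncertain. The sum over the family, which depends less on that division, was 370, 393 and 397 CPM in DOX– and 348, 316 and 359 CPM in DOX+ libraries, which do not overlap. An exact permutation test of 3 against 3 libraries cannot go below 0.1. Without DOX+ replicate 2 the log2 fold changes were −0.23 for IFITM1, −0.13 for IFITM2 and −0.11 for IFITM3. The transcripts are also short (611 to 1006 bases, against a median of 3376 over the tested features). When a trend of the counts on transcript length was removed from each library, the median of the 3 genes was −0.14 in place of −0.20 and their smallest edgeR adjusted p was 0.19. IFITM3 moved most, to −0.080 (edgeR adjusted p = 0.36). The part of length in the difference was not tested further. The summed level of the 37 genes was 953, 952 and 968 CPM in DOX– and 921, 886 and 929 CPM in DOX+ libraries. Without the IFITM genes it was 583, 559 and 571 CPM in DOX– and 572, 570 and 570 CPM in DOX+ libraries. Most of that remainder comes from ADAR, MAVS, EIF2AK2 and STAT2, with DOX– means of 206, 94.8, 63.7 and 45.4 CPM. The sum therefore says little about the less abundant genes.

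The IFIT family, which encodes proteins that bind viral RNA lacking a methylated cap, lies in a cluster on chromosome 10. IFIT1 had 132, 162 and 121 counts in DOX– and 102, 166 and 151 in DOX+ libraries, with a log2 fold change of −0.03 (95% interval −0.45 to 0.38). IFIT2 had 138, 113 and 106 counts against 99, 139 and 104. IFIT3 had 234, 320 and 315 counts against 296, 265 and 244. The ranges of all of these overlap. IFIT5, the most abundant of the family in counts, had 687, 743 and 733 against 702, 717 and 835, with a log2 fold change of 0.01 (95% interval −0.15 to 0.17). IFIT1, whose promoter window with 2 ISRE cores is shown above, stood at 1.63 ± 0.326 FPKM (SD, n = 3) in DOX– and 1.66 ± 0.599 FPKM in DOX+ cells.

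Among the other antiviral effectors, ISG15, a ubiquitin-like protein attached to other proteins after interferon, was abundant. It had 889, 814 and 923 counts in DOX– and 893, 844 and 879 in DOX+ libraries. The DOX+ values lie inside the range of the DOX– values, and the log2 fold change was −0.05 (95% interval −0.20 to 0.09). ISG20, an exonuclease for single-stranded RNA, had 14, 13 and 23 counts in DOX– and 0, 6 and 9 in DOX+ libraries. The groups do not overlap, and the log2 fold change of −1.76 is the most negative of the 28, but its standard error was 0.70 and its edgeR adjusted p 0.26. It was −1.19 without DOX+ replicate 1, the library at 0, −2.46 without DOX+ replicate 3 and −2.45 with limma-voom, with adjusted p-values of 0.18 to 0.46 in these fits. XAF1, a pro-apoptotic interferon-stimulated gene, had 42, 25 and 29 counts in DOX– and 28, 80 and 32 in DOX+ libraries. DOX+ replicate 2 alone is high, and the log2 fold change of 0.50, the highest of the 28, was −0.15 without that library. MX1, a GTPase that traps viral nucleocapsids, had 6, 15 and 15 counts against 12, 20 and 11. BST2, which tethers budding virions to the cell surface, had 7, 8 and 17 counts against 18, 0 and 11. The groups overlap for both. At this depth the interval of MX1, −0.87 to 1.29, leaves room for a doubling, and that of BST2, which starts at −1.88, for a doubling or a halving. MX2, a GTPase related to MX1, and RSAD2, which encodes viperin, an enzyme that makes a chain-terminating nucleotide, were at 0 counts in all 6 libraries.

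The IFI genes and the antigen processing genes filled the rest of the set. IFI6, a mitochondrial and endoplasmic reticulum protein, had 215, 255 and 209 counts in DOX– and 271, 222 and 207 in DOX+ libraries, a log2 fold change of −0.001 (95% interval −0.30 to 0.30). IFI35 had 260, 199 and 196 counts against 241, 251 and 259, a log2 fold change of 0.15 (95% interval −0.15 to 0.45), which was 0.31 without DOX– replicate 1 and 0.07 without DOX– replicate 3. IFI44 had 36, 31 and 19 counts against 26, 38 and 27. The groups overlap in each. IFI27, which rises strongly with interferon in many tissues, had 8, 11 and 7 counts in DOX– and 20, 5 and 8 in DOX+ libraries, and IFI44L had 2 counts in DOX– replicate 1 and 0 in the other 5 libraries. Both were under the filter. PSMB8 and PSMB9 encode catalytic subunits of the immunoproteasome, and TAP1 encodes part of the peptide transporter. PSMB8 had 528, 468 and 491 counts in DOX– against 529, 473 and 497 in DOX+ libraries, PSMB9 had 54, 43 and 40 against 35, 49 and 41, and TAP1 had 836, 817 and 816 against 813, 861 and 874. TAP1 had a log2 fold change of −0.002 (95% interval −0.14 to 0.13).

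Genes with and without the ISRE core were also set side by side. Among the tested genes with a RefSeq promoter, the 16 with a core had log2 fold changes from −1.76 to 0.44 with a median of −0.03, and 5 of them were above 0. The 9 without a core ranged from −0.25 to 0.50 with a median of −0.007, and 4 were above 0. These values are a description and were not tested.

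The rest of the pathway was read from 4 further gene lists. Of 13 interferon genes, 11 were at 0 counts in all 6 libraries, among them IFNB1 and IFNG, and no library held more than 16 counts for any of them (IFNE, DOX– replicate 3). Among the receptors, their kinases and feedback inhibitors, 11 were tested and edgeR called 0 higher and 0 lower, with 0 higher and 1 lower (9.09%, against 7.69% of all features) at an unadjusted p under 0.05. IFNGR1, a chain of the interferon-gamma receptor, measured 32.4 ± 1.54 CPM (SD, n = 3) in DOX– and 35.0 ± 0.453 CPM in DOX+ libraries, and the log2 fold change was 0.11. TYK2, a kinase bound to the type I receptor, measured 53.4 ± 2.91 and 48.7 ± 3.55 CPM, a log2 fold change of −0.13 that was −0.087 without DOX– replicate 3 or DOX+ replicate 1. Of the sensing pathway, 24 of 30 genes were tested and 0 were called, with 0 higher and 3 lower (12.5%, against 7.69% of all features) at the unadjusted threshold. In CPM, the groups did not overlap for 1 of these 24 genes (4.17%) and for 2 of the 11 above (18.2%), against 20.3% of all features. TBK1, the kinase that phosphorylates IRF3, had a log2 fold change of 0.11 (edgeR adjusted p = 0.51), which was 0.034 without DOX– replicate 3. STING1, the adaptor of cytoplasmic DNA sensing, had one of −0.13 (edgeR adjusted p = 0.30), which was −0.083 without DOX+ replicate 2. limma-voom and DESeq2 likewise called 0 genes in these first lists.

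Of 51 other interferon-stimulated genes, 39 were tested and 1 passed, in the lower direction (2.56%, against 0.715% of all features). At the unadjusted threshold 1 was higher and 3 were lower (2.56% and 7.69%), and 10 of the 39 (25.6%) did not overlap between groups, against 20.3% of all features. WARS1 (ENSG00000140105, chromosome 14 from 100333790 to 100376805), a tryptophanyl-tRNA synthetase that interferon-gamma induces, fell from 147 ± 2.32 CPM (SD, n = 3) in DOX– to 116 ± 1.78 CPM in DOX+ cells. It had 4976, 5102 and 5220 counts in DOX– and 4103, 4077 and 4277 in DOX+ libraries, which do not overlap. Its log2 fold change of −0.34 had a standard error of 0.0377 and an edgeR adjusted p of 0.00041. WARS1 belongs to the aminoacyl-tRNA synthetases as well as to the interferon-stimulated genes. The chemokine genes CXCL9, CXCL10, CXCL11 and CCL5 and the tryptophan-degrading enzyme IDO1, all strongly induced by interferon, were at 0 in all 6 libraries. Of the 18 genes of class I antigen presentation, all were tested and edgeR called 0, with 3 higher and 3 lower at the unadjusted threshold (16.7% in each direction, against 7.31% and 7.69% of all features). In CPM, the groups did not overlap for 6 of these 18 genes (33.3%), against 20.3% of all features. PDIA3, a thiol oxidoreductase of the peptide-loading complex, measured 734 ± 20.2 CPM in DOX– and 793 ± 12.2 CPM in DOX+ libraries, and the log2 fold change of 0.11 had an edgeR adjusted p of 0.089 and a DESeq2 adjusted p of 0.0065. TAP2, the partner of TAP1, had a log2 fold change of −0.14. The medians over the tested genes were 0.03 for receptors and kinases, −0.007 for the sensing pathway, −0.03 for the other interferon-stimulated genes and 0.006 for class I presentation.

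**Figure D4:**
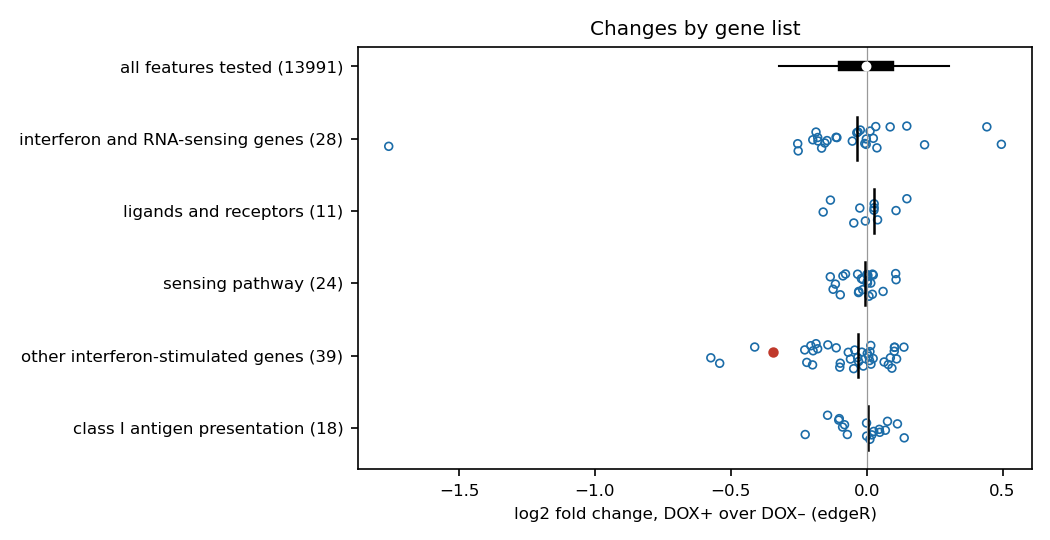
Log2 fold change (DOX+ over DOX–) of every tested gene in the 28-gene set and in the 4 further lists of the interferon pathway, with the median of each list. The 5 medians run from −0.034 to 0.027, and the bar at the top gives the middle 50% (thick) and the 5th to 95th percentile (thin) of all features tested. WARS1, filled, is the only gene of these lists past an adjusted p of 0.05 by edgeR.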

How the data were processed

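RNA was sequenced by the authors as poly(A)-selected, paired 150 bp reads from 6 libraries. Per the labels and the methods, HISAT2 aligned the reads to GRCh38 and StringTie handled the alignments; versions, annotation release and the counting step are not given in the sources used here. The deposited counts are whole numbers without normalization. The deposited FPKM values, nominally scaled by transcript length and depth, were used for levels and in no test. They do not follow the counts in every gene. ISG20 had 14 counts and 0.199 FPKM in DOX– replicate 1, against 23 counts and 0.617 FPKM in DOX– replicate 3. Of 23754 features, 3780 are unannotated loci, with 0.938% to 0.996% of the counts, and 17 stray lines were dropped.

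Sample titles gave the groups and the replicate numbers. Counts were tested with edgeR 4.0.16 in R 4.3.3: filterByExpr (minimum count of 10), TMM scaling (factors 0.988 to 1.01), no covariates in the quasi-likelihood test, and p-values adjusted after Benjamini and Hochberg across 13991 features and called under 0.05. The standard error is the size of the log2 fold change over the root of F, and 95% intervals use the t quantile. CPM are counts scaled to a common TMM-adjusted library size. Depth of 34057675 to 36120260 counts per library limits genes with few counts. Chi-square per degree of freedom within a group was 4.54 to 8.12, so no pair was counted as 1 library. Coordinates and transcript lengths came from GENCODE 44, which may not be the authors' release, and promoters from RefSeq GRCh38.p14. Scripts were tested on simulated data.

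The genes and lists were chosen with earlier results of these data known, so no p-value adjusted over a list and no set test is given. Values in every library were given for RNA sensors, double-stranded RNA binding effectors, transcription factors, the IFITM family, the 5 genes of highest FPKM and the 3 of smallest p in each direction; counts of the other genes were added after they were seen. From the other lists, genes under an adjusted p of 0.05 were named, or else the one with the smallest p in each direction, and a few genes at 0 counts were added after their values were seen. Alternatives were DESeq2 1.42.0, limma-voom (limma 3.58.1), 2 other filters, scaling by library size or by the upper quartile, an adjusted p under 0.1, each library left out in turn, a block on the replicate number, and a per-library lowess trend (span 0.3) on transcript length, known for 12771 features. A table without unannotated loci was added after seeing the data.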

Additional observations from a re-analysis of the deposited data

How the results depend on the processing

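Of 15 refits, 14 called 0 of the interferon and double-stranded RNA genes in either direction, and DESeq2 called 3 lower; an adjusted p under 0.1 with edgeR called 1 lower (IFITM1). Leaving out one library gave a smallest adjusted p among these genes of 0.068 to 0.21. Their median log2 fold change was −0.014 with library size scaling, which moved the median of all features to 0.019, and ranged from −0.097 (without DOX+ replicate 2) to −0.015 (without DOX– replicate 1) over the left-out libraries. Over all features, 56 were called higher and 100 lower. These counts were 127 and 163 without the filter, 260 and 267 with DESeq2, and 147 and 192 at an adjusted p under 0.1; library size scaling called 88 higher and 77 lower, so that lower calls no longer outnumbered higher ones. Leaving out one library gave 20 to 69 higher and 54 to 92 lower, with the lowest counts without DOX+ replicate 1. The class I count was 1 higher with DESeq2, with the replicate block and at an adjusted p under 0.1 (PDIA3 in each), and 1 higher with the length trend removed (CALR, 0.10, named after its value was seen).

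Deviations of same-numbered libraries correlated at −0.035 to 0.039. Whether these libraries share more than the number was not tested further. With the replicate block, 135 features were called higher and 157 lower, against 56 and 100 without it, and 0 of the interferon and double-stranded RNA genes were called.

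Among 344 single-gene values under these alternatives, 328 kept their direction and were not seen to cross the threshold. DESeq2 gave no adjusted p for IFIH1, OAS3, IRF7, IRF9 and XAF1, so their DESeq2 values are counted by direction alone. Estimates near 0 turned sign: MAVS to −0.0091 and ISG15 to 0.031 with the length trend removed, and ADAR to 0.014 with library size scaling. Over the left-out libraries, DDX58 ranged from −0.048 to 0.12, IFIH1 from 0.21 to 0.65, ADAR from −0.020 to 0.010, STAT2 from −0.070 to 0.025, IRF7 from −0.22 to 0.011 and XAF1 from −0.15 to 0.76. The causes were not tested. Depth limits MX1, BST2, XAF1, IFIH1 and ISG20 and the 9 genes not tested, of which none had more than 59 counts over the 6 libraries.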
